A study of Mus musculus with 4 samples.

Results

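The H3K27me3 regions described here held a called peak in progenitors from adult mouse bone marrow and none in progenitors from fetal liver. H3K27me3 peaks of both cell types that lay at most 3 kb apart were joined into union regions. Marrow-only regions were those on chromosomes 1 to 19, at least 1.5 kb wide, without a single base in a fetal liver peak. There were 396 of them among 22283 union regions of the whole study, and they were 4.56% of the 8676 autosomal regions of that width that held a marrow peak. The overlap of the peak lists and the width chose these regions, so their lack of fetal liver peaks is how they were picked and not a finding. Every value below is a description of them, with no test.

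Trimethylation of lysine 27 on histone H3 is laid down by Polycomb repressive complex 2, whose catalytic subunit is EZH2 or EZH1, and is bound by Polycomb repressive complex 1. In blood progenitors, as in other cells, it lies in broad domains over silent developmental regulators and as shorter stretches over other silent or weakly active genes. Blood formation moves from the fetal liver to the bone marrow around birth, and fetal and adult progenitors use partly different gene programmes.

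The marrow sample came from long bones of C57BL/6 mice aged 8 weeks and the fetal sample from livers of embryonic day 14.5. Both were sorted as lineage-negative cells, that is, cells without the surface proteins that mark mature blood lineages, and both were kept in medium with IL-3, IL-6 and FLT3 ligand at 10 ng/ml each and SCF at 100 ng/ml. Both carried a lentivirus encoding NOTCH1ΔE (N1dE), an activated form of NOTCH1, and were sorted for its GFP marker 3 days later. No group without the virus is part of the study, and lineage-negative cells are a mixture of stem cells and progenitors. The comparison asks how the H3K27me3 landscape of NOTCH1-transduced progenitors differs with developmental source. Native chromatin cut with micrococcal nuclease was immunoprecipitated, and for each cell type there is 1 list of broad peaks called on merged libraries against input. With 1 list per cell type there is no spread between replicates. The read depth is unknown, and a mark just under the calling threshold in fetal liver cannot be told apart from an absent one. Many marrow calls were themselves weak, with −log10 q down to 0.27 in the marrow list. The highest −log10 q in a marrow-only region had a median of 1.50, and in 127 of the 396 regions (32.1%) it reached 2. Intervals given below are 95% Wilson intervals and cover counting error over regions only.

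Most marrow-only regions were short, and a few were domains. The median width was 2709 bp (interquartile range 1944.5 to 3587.25 bp), and together the regions spanned 1283.9 kb. Of the 396 regions, 232 were narrower than 3 kb, 36 reached 5 kb and 7 reached 10 kb. Fetal-liver-only regions chosen by the mirrored rule numbered 2534, or 23.4% of the 10814 autosomal regions with a fetal liver peak. The fetal liver list is the longer one, with 31847 peaks against 20024, and with only its 20024 highest-ranked peaks by −log10 p kept there were 1634 marrow-only regions in place of 396. The 2534 fetal-liver-only regions had a median width of 2943.5 bp, and 16.5% of them reached 5 kb, against 9.09% (6.64 to 12.3%) of the 396 marrow-only regions. Yet the widest marrow-only region, of 42287 bp, exceeded the widest fetal-liver-only region, of 26976 bp. Shared autosomal regions of at least 1.5 kb, which numbered 8280, had a median width of 5701.5 bp. A region with peaks of both lists is more easily wide, and the part of the joining in that gap in width was not tested.

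At the width limit the 3 regions on either side were lone peaks. The narrowest marrow-only regions lay on chromosome 2 from 152221601 to 152223101 (1501 bp), on chromosome 15 from 76358537 to 76360040 (1504 bp) and on chromosome 13 from 56798498 to 56800008 (1511 bp). Their peaks had fold enrichments of 2.28, 3.58 and 2.54 over input. Just outside the limit lay regions of 1497 bp on chromosomes 18 and 6 and one of 1496 bp on chromosome 17, with fold enrichments of 2.10, 2.08 and 2.01. Another 2239 autosomal regions with marrow peaks alone fell below 1.5 kb, with a median width of 555 bp.

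Marrow peaks filled a median of 71.2% of a marrow-only region, and the fill depended on how the region was built. Across other settings the median ran from 54.3% with a minimum width of 3 kb to 100%, for example with joining within 1 kb. A single peak made up 176 regions (44.4%), which are filled completely by construction. Another 190 regions were made of 2 peaks and had a median fill of 49.9% (interquartile range 38.7 to 61.9%). The remaining 30 held 3 to 6 peaks, with a median fill of 46.5%. In 169 of the 220 regions with more than 1 peak, no single peak reached 1.5 kb, so these regions passed the width limit only because neighbouring peaks were joined. Fetal-liver-only regions had 1 peak in 37.0% (35.1 to 38.9%), against 44.4% (39.6 to 49.4%) of marrow-only regions, and 3 or more peaks in 14.2% (12.9 to 15.6%), against 7.58% (5.36 to 10.6%). With 2 or more peaks the median fill was 49.6% in fetal-liver-only and 49.2% in marrow-only regions. High fill and great width came together in few regions. The lowest fill of all was 15.5%.

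**Figure D1:**
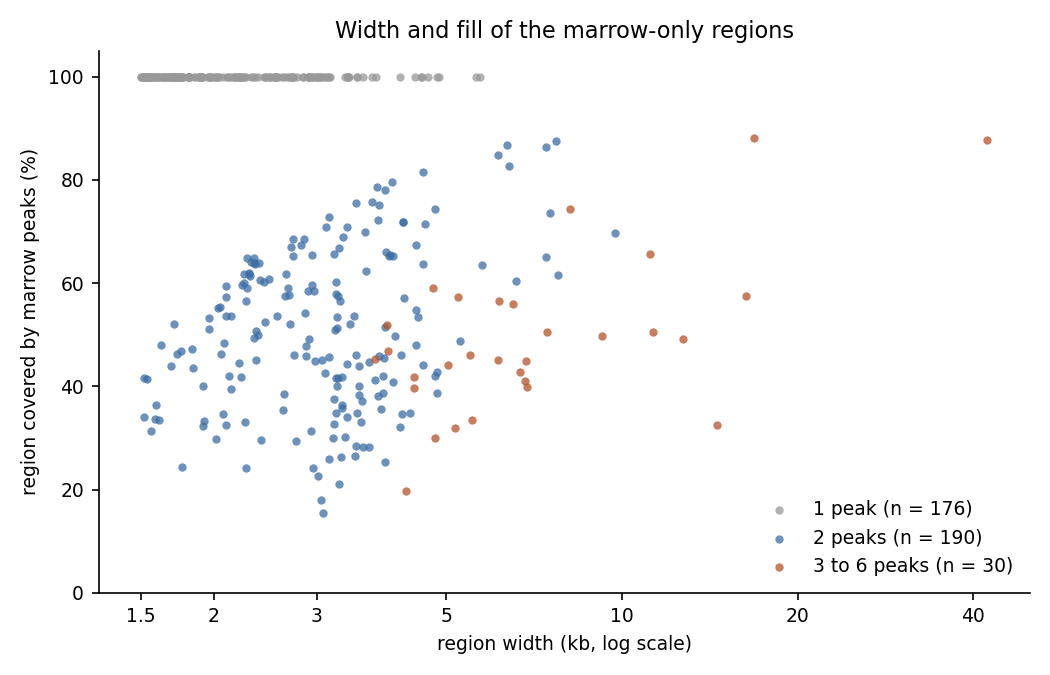
Each point is 1 of the 396 marrow-only regions, placed by its width (kb, log scale) and by the share of it that marrow peaks cover (%), and coloured by its number of peaks. Single-peak regions lie at 100%, and the 42.3 kb region stands alone at the right, with a fill of 87.7%.

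The widest marrow-only region, on chromosome 11 from 95850268 to 95892554, was an almost continuous domain. It held peaks of 20.6, 10.9, 0.923 and 4.65 kb, in this order along the chromosome. Their fold enrichments were 2.27, 2.69, 2.81 and 2.02, and their −log10 q was 1.97, 2.53, 2.54 and 1.31. No peak of the domain thus exceeded 2.81, and the widest was near the median of the marrow-only regions' strongest peaks, 2.24. Its fetal-liver-free stretch was 141.7 kb long, with a fetal liver peak 45.3 kb before the region and another 54.1 kb after it. Both flanks were marked in both cell types. Before it lay a shared region of 11.3 kb, 42.3 kb away, with 5.53 kb in marrow peaks and 2.83 kb in fetal liver peaks. After it, 52.9 kb away, lay a shared region of 4.70 kb with 1.92 kb in marrow and 3.47 kb in fetal liver peaks. Between the domain and the earlier flank were 3 short marrow-only regions of 0.423, 0.802 and 0.319 kb. A second marrow-only region, of 1546 bp, lay 66.0 kb beyond the domain, from 95958573 to 95960118, with fetal liver peaks 4.08 kb before and 3.43 kb after it.

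The second widest region, on chromosome 6 from 49160667 to 49177491, was as fully covered but stood in sparse surroundings. Its 3 peaks of 9.89, 0.930 and 4.02 kb filled 88.2% of it, with fold enrichments of 2.10, 2.61 and 2.74. The last of these was the strongest by −log10 q, at 3.01. A fetal liver peak lay 8.91 kb after it, but the nearest one before it was 191.6 kb away, and the nearest shared region of 10 kb or more was 480.2 kb away. Its fetal-liver-free stretch spanned 217.3 kb and held 6 marrow peaks, 3 of them in this region.

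The third widest, of 16.3 kb on chromosome 3 from 106006170 to 106022509, was filled for 57.5% by 5 peaks and belongs to a group described below. The other wide regions were also less filled than the first 2. On chromosome 3, from 52141421 to 52156002, 6 peaks filled 32.6% of 14.6 kb, and the strongest of them was 412 bp wide with a fold enrichment of 3.49. On chromosome 6, from 48684908 to 48697657, 4 peaks filled 49.1% of 12.8 kb. That region lay 4.48 kb from a fetal liver peak that belonged to a shared region of at least 10 kb. On chromosome 1, from 183941847 to 183953137, 4 peaks filled 50.5% of 11.3 kb, and fetal liver peaks were 262.7 kb before and 343.3 kb after it. On chromosome 16, from 22141152 to 22152316, 3 peaks filled 65.7% of 11.2 kb, 3.97 kb from a wide shared region. The rest of the 10 widest were on chromosome 7 from 128123183 to 128132911, on chromosome 17 from 23669903 to 23679145 and on chromosome 17 from 17961178 to 17969326. They measured 9.73, 9.24 and 8.15 kb, with fills of 69.8, 49.8 and 74.4% and fetal liver peaks 16.2, 7.49 and 17.2 kb away. Their peaks of highest fold enrichment had −log10 q of 1.09, 2.83 and 0.83. Of the 10 widest regions, 6 had no fetal liver peak within 10 kb, and 4 remained marrow-only when peaks were joined over up to 10 kb. With only marrow peaks of −log10 q of at least 2 kept, 5 of the 10 still overlapped a marrow-only region.

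Marrow-only regions were found on every autosome, roughly in proportion to the number of marrow-marked regions there. Their number ran from 8 on chromosome 14 and 9 on chromosomes 10 and 19 to 42 on chromosome 2. Over the 19 autosomes it went with the number of regions that held a marrow peak (Pearson's r = 0.84, Spearman's rho = 0.83). That number includes the marrow-only regions themselves, and chromosome size was not accounted for. As a share of those regions they made up 2.50% (1.27 to 4.85%) on chromosome 14 and 7.40% (5.13 to 10.5%) on chromosome 3, around 4.56% on all autosomes. Chromosome 3 was the only autosome whose interval did not include 4.56%. Without a group of 6 regions described below, its share was 5.85% (3.86 to 8.78%), and the interval then included that value. Fetal-liver-only regions were the more numerous on each autosome. For each marrow-only region there were 3.11 of them on chromosome 3 and 14.4 on chromosome 14.

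**Figure D2:**
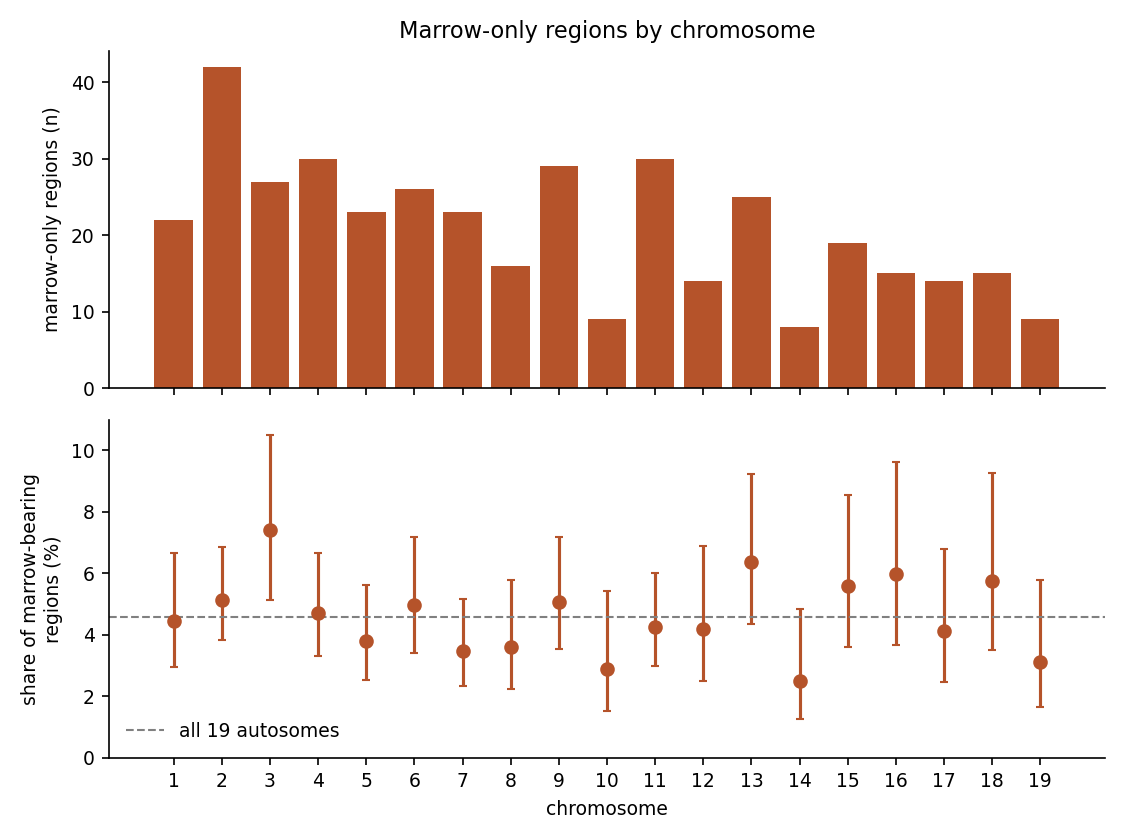
The upper panel gives the number of marrow-only regions on each autosome. The lower panel gives their share of all regions of at least 1.5 kb with a marrow peak (%), with 95% Wilson intervals, and the dashed line marks the 4.56% of all autosomes; chromosome 3 lies highest, at 7.40%.

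With peaks joined over 3 kb, most marrow-only regions had no other of at least 1.5 kb within 100 kb. Regions of any width with marrow peaks alone were also counted. By that count 157 of the 396 (39.6%, 35.0 to 44.5%) shared their fetal-liver-free stretch with at least 1 other. Another marrow-only region was within 100 kb of 71 regions (17.9%, 14.5 to 22.0%) and within 10 kb of 15, while 228 (57.6%) had none within 1 Mb. The share within 100 kb was 28.7% without joining and 8.48% with joining over 10 kb. It was 36.6% with as many fetal liver as marrow peaks and 47.5% with a −log10 q of 2 or more in both lists, settings that leave more marrow-only regions. The median gap to the next was 1372.8 kb. Chained at gaps of up to 100 kb, 325 regions stood alone, 25 groups held 2, 5 groups held 3 and 1 group held 6. Counted in 1 Mb windows, 267 of the 321 windows with a marrow-only region held 1, and the fullest held 6. Among fetal-liver-only regions, 56.9% had another of their kind within 100 kb, but there were 2534 of them. A more numerous class can lie closer together, and the part of number in this difference was not tested.

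Next to the marrow-only regions, other regions with marrow peaks alone were more frequent than among all union regions. The next union region of any class and width was taken on each side, a measure that still depends on how common each class is. Of all 21820 autosomal union regions, 12.1% held marrow peaks alone, 46.1% fetal liver peaks alone and 41.9% peaks of both. The next region on a side held marrow peaks alone on 187 of 791 sides (23.6%, 20.8 to 26.7%). On the sides of shared regions of at least 1.5 kb this was so for 12.1% (11.6 to 12.6%), and on those of fetal-liver-only regions for 7.72% (7.01 to 8.48%). Marrow-only regions under 1.5 kb were much like the wider ones, at 20.5% (19.4 to 21.8%). The next region was fetal-liver-only on 31.2% (28.1 to 34.5%) of the sides of marrow-only regions, against 41.1% of those of shared regions and 55.0% of those of fetal-liver-only regions. A shared region was next on 45.1% (41.7 to 48.6%) of the sides of marrow-only regions, an interval that includes the 41.9% of shared regions among all union regions. Each class thus lay next to its own kind more often than the other single-population class did. Sides of neighbouring regions are counted from both ends and are not independent.

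The largest group lay on chromosome 3, from 106006170 to 106112906, in a long stretch without fetal liver peaks. Its 6 regions measured 16.3, 6.16, 2.87, 2.72, 2.06 and 1.68 kb in order along the chromosome. With 3 shorter marrow-only regions between them they held 18 marrow peaks, which covered 20.8 kb or 19.5% of the 106.7 kb span. No fetal liver peak lay in the span, and the closest were 504.7 kb before and 406.0 kb after it. The fetal-liver-free stretch of 1017.5 kb held 21 marrow peaks in 11 regions, so most of its marrow peaks lay in the group. One further marrow-only region, from 105506229 to 105509866, lay at the far edge of this stretch, 4.80 kb from a fetal liver peak.

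Peak strength changed along this group. In the first and widest region 5 peaks had fold enrichments between 2.16 and 2.46. The second region had peaks at 1.80, 2.90 and 3.91, in this order. The third region had peaks of 0.800 and 0.521 kb at 3.87 and 4.45, and the fourth had peaks at 2.34 and 2.31. In the fifth, the 2 peaks had 2.92 and 4.60, and the lone peak of the sixth had 3.47. A −log10 q of 5 or more was reached by 4 of the 18 peaks (5.64, 5.95, 5.68 and 5.53), and each of these was above the 99th percentile of the marrow list by −log10 p (99.2, 99.2, 99.2 and 99.1). Over all autosomal marrow peaks 1.55% had a −log10 q that high.

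**Figure D3:**
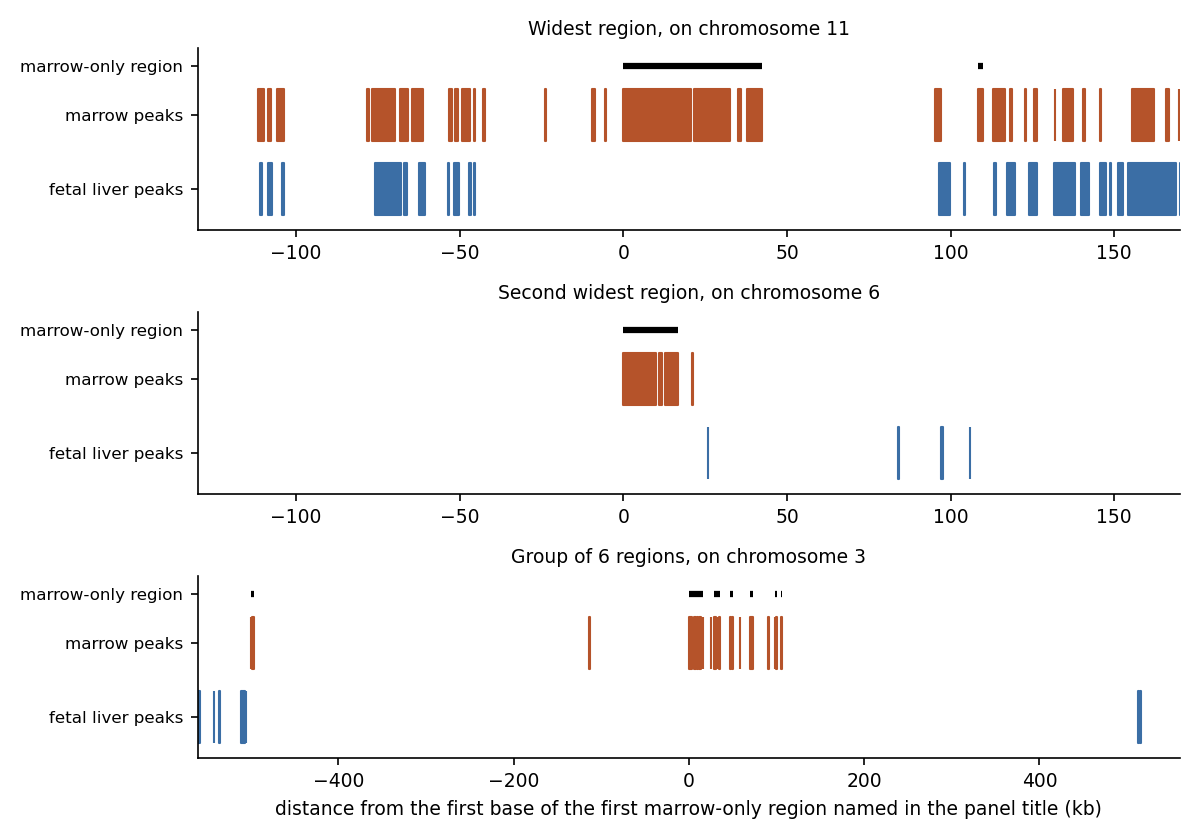
Marrow peaks, fetal liver peaks and marrow-only regions (black bars) at 3 loci, drawn to scale against the distance in kb from the first base of the marrow-only region, or the first of the group, in the panel title. The chromosome 11 domain lies between stretches marked in both lists, whereas the 6 regions on chromosome 3 have no fetal liver peak within 406.0 kb.

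Smaller groups were less isolated. On chromosome 6, 3 regions of 5.54, 4.40 and 2.31 kb lay from 120651330 to 120678496, with 8 marrow peaks over 5.11 kb. Their strongest peak, of 434 bp in the last region, had a fold enrichment of 4.14. Fetal liver peaks lay 29.7 kb before the group and 402.1 kb after it. On chromosome 9, 3 regions of 3.33, 1.70 and 4.16 kb lay from 100255125 to 100329643. The highest fold enrichment there was 2.01, and 1 fetal liver peak lay between them.

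Measured from the edge of the region, the nearest fetal liver peak was a median of 16.8 kb away (interquartile range 7.29 to 48.9 kb). The joining sets a floor of 3 kb on this gap. Fetal liver peaks lay within 5 kb of 54 regions (13.6%), within 10 kb of 138 (34.8%) and within 50 kb of 300 (75.8%). In the lists as deposited, 58 (14.6%, 11.5 to 18.5%) were more than 100 kb away. The median gap was 4.97 kb without joining, 35.0 kb with joining over 10 kb and 108.5 kb when peaks of either list needed a −log10 q of 2 or more. Each setting gave its own set of marrow-only regions. Seen from the other side, fetal-liver-only regions had a median gap of 19.05 kb to the nearest marrow peak, with 13.9% (12.6 to 15.3%) beyond 100 kb. The marrow list is the shorter one, which can make gaps to it longer, and its part here was not tested.

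The closest of all lay at the joining limit. On chromosome 2, the region from 70380812 to 70383549 was 3.02 kb from a fetal liver peak. The next 4 lay 3.12 kb away on chromosome 9 from 63331683 to 63333965, 3.17 kb on chromosome 15 from 75815567 to 75819741, 3.19 kb on chromosome 5 from 117536764 to 117538300 and 3.21 kb on chromosome 7 from 91357840 to 91359380. A slightly longer joining distance would have joined them to those fetal liver peaks. That of chromosome 15 was a single peak of 4.18 kb beside a shared region of at least 10 kb.

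At the other extreme, 5 regions lay more than 500 kb from any fetal liver peak, and none of these was wide. The farthest was on chromosome 5 from 86609371 to 86611288, with a fetal liver peak 1762.4 kb before it and the next 2294.9 kb after it. It was made of 2 peaks over 0.770 kb, the stronger of which had a fold enrichment of 2.69. On chromosome 9, from 92435767 to 92438679, a single peak of 2.91 kb was enriched 3.65-fold, with 4.66 as its −log10 q, and it was the only marrow peak in 3988.2 kb without fetal liver peaks. The others were single peaks on chromosome 12 from 89590947 to 89593393, on chromosome 9 from 84666801 to 84668618 and on chromosome 12 from 42209697 to 42213106. Their fold enrichments were 2.03, 2.13 and 2.08, and their gaps were 949.3, 860.3 and 690.1 kb. These were weak calls, with −log10 q of 1.03, 1.32 and 0.99. These regions stood apart in deserts of the mark in both lists, and each was the only region with a marrow peak in its fetal-liver-free stretch.

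Wide shared regions, the 2112 autosomal regions of at least 10 kb with peaks of both lists, were farther from marrow-only than from fetal-liver-only regions. The median gap was 228.0 kb (interquartile range 49.0 to 766.7 kb) for marrow-only regions, 114.5 kb (29.0 to 402.9 kb) for fetal-liver-only regions and 175.4 kb (38.4 to 613.2 kb) for shared regions of 1.5 kb to under 10 kb. A wide shared region lay within 100 kb of 34.8% (30.3 to 39.7%) of marrow-only, 47.6% (45.7 to 49.6%) of fetal-liver-only and 39.7% (38.4 to 40.9%) of narrower shared regions. The same set of wide regions served all 3 classes. The fetal liver list is the longer one. Its peaks covered 49.35 Mb of the shared regions of at least 1.5 kb, against 37.03 Mb for marrow peaks. The part of list length in these differences was not tested. Under other settings both the marrow-only and the wide shared regions were rebuilt, so the medians describe other sets of regions. The median was then 433.2 kb in 91 marrow-only regions with marrow peaks of −log10 q 2 or more only. It was 3850.4 kb in 1576 regions with that limit on both lists, 116.8 kb with joining over 10 kb and 651.1 kb without joining. The gap of fetal-liver-only regions was not recomputed under these settings. Marrow-only regions under 1.5 kb gave 220.0 kb and 34.7% (32.8 to 36.7%), close to the wider ones. Beyond 1 Mb from any wide shared region were 72 marrow-only regions (18.2%, 14.7 to 22.3%), against 10.3% (9.18 to 11.5%) of fetal-liver-only regions. A wide shared region lay within 10 kb of 29 marrow-only regions (7.32%, 5.15 to 10.3%). The share was 11.5% (10.3 to 12.8%) for fetal-liver-only regions and 6.48% (5.53 to 7.57%) for marrow-only regions under 1.5 kb. In 23 of the 396 the nearest fetal liver peak was the edge of the nearest wide shared region.

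**Figure D4:**
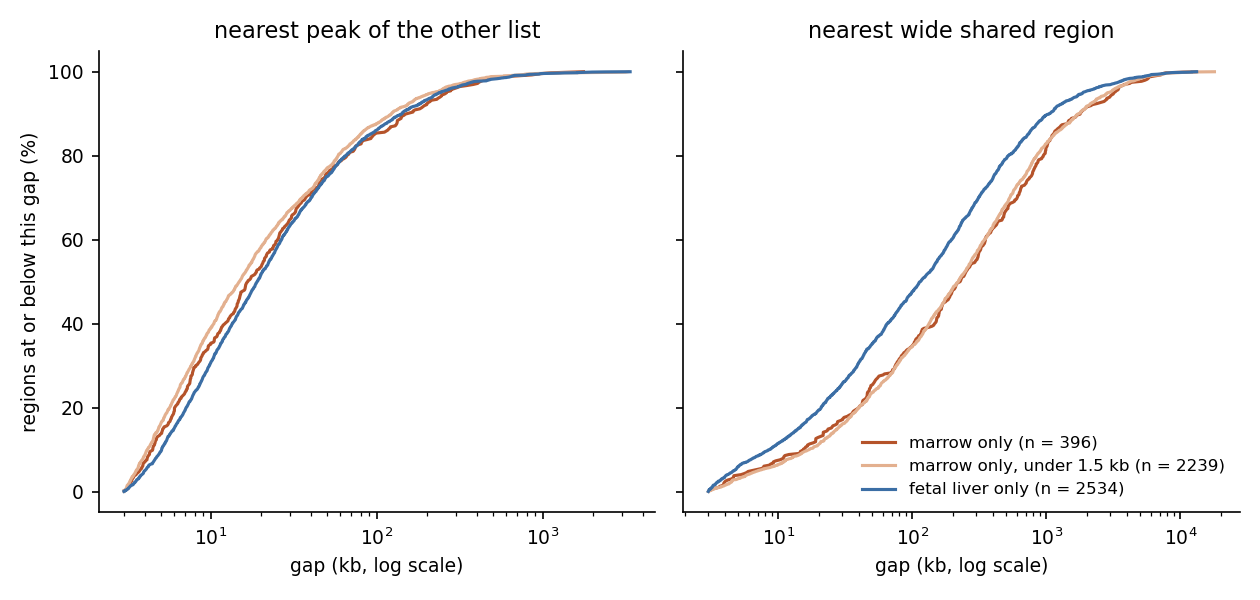
Cumulative share of regions (%) against the gap in kb (log scale) to the nearest peak of the other list (left) and to the nearest shared region of at least 10 kb (right), for marrow-only regions, those under 1.5 kb and fetal-liver-only regions. On the left the curves run close together, with medians of 16.8, 14.9 and 19.05 kb, and on the right the fetal-liver-only curve lies to the left of the others, with a median of 114.5 kb against 228.0 kb.

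The 655 marrow peaks inside the marrow-only regions had fold enrichments much like those of marrow peaks elsewhere. Their median fold enrichment was 2.08 (interquartile range 1.81 to 2.45), against 2.13 (1.89 to 2.46) for the 15761 marrow peaks of shared regions of at least 1.5 kb. By −log10 p their median percentile in the marrow list was 45.0, against 51.1. A fold enrichment of at least 3 was reached by 9.92%, against 8.15% in shared regions and 8.97% over all. A −log10 q of at least 2 was reached by 25.3%, against 26.8% in shared regions. The highest fold enrichment in a marrow-only region was 5.90, against 8.07 in a shared one.

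The caller gives a mean over each peak, so peaks were also compared within classes of width. Among peaks of 0.2 to under 0.5 kb the median fold enrichment was 2.02 in marrow-only and 2.11 in shared regions. In the class of 1 to under 2 kb it was 2.16 and 2.11, and in that of 2 to under 5 kb 2.06 and 2.13. In these classes the medians lay well inside the interquartile range of the other kind of region. Only 7 peaks of marrow-only regions reached 5 kb, against 1896 in shared regions, and their median fold enrichments were 2.27 and 2.17.

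**Figure D5:**
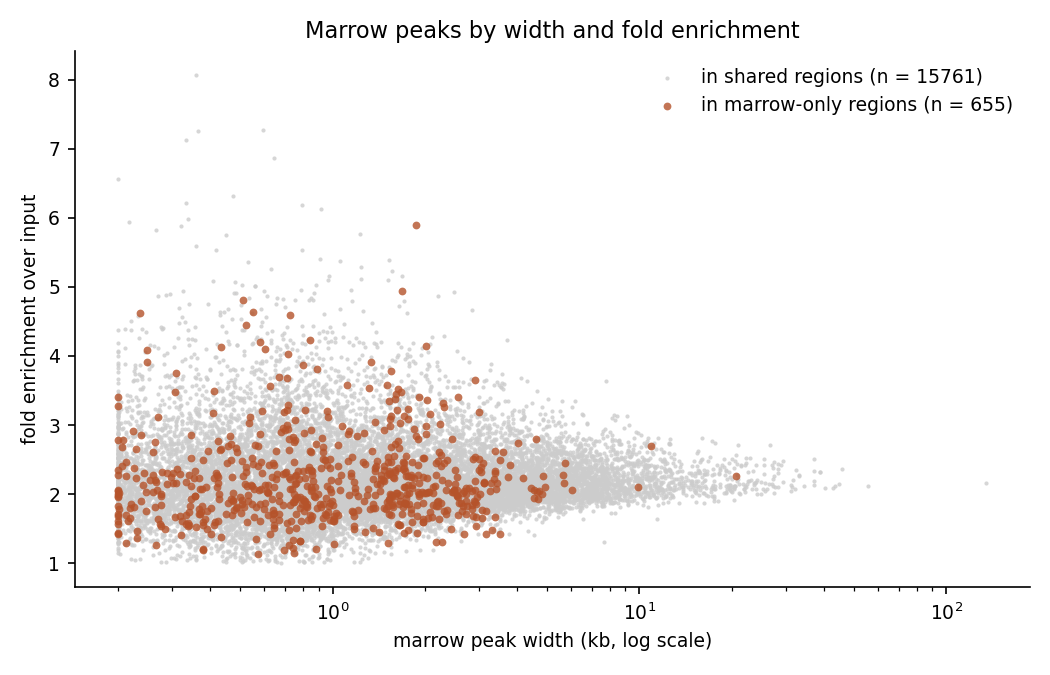
Each point is 1 marrow peak, placed by its width (kb, log scale) and its fold enrichment over input; orange points are the 655 peaks of marrow-only regions and grey points the 15761 peaks of shared regions of at least 1.5 kb. The orange points lie within the grey cloud up to a few kb and are sparse beyond 5 kb, where 7 remain.

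Individual marrow-only regions held some strong, short peaks. The highest fold enrichment was on chromosome 11, in the region from 103390435 to 103395717. There a peak of 1866 bp had 5.90, with a −log10 q of 8.45, and a fetal liver peak lay only 3.91 kb away. On chromosome 6, the region from 54342568 to 54344249 was a single peak of 1682 bp with a fold enrichment of 4.94, 4.46 kb from a fetal liver peak. The next were on chromosome 2 from 101643250 to 101647305 with 4.82, on chromosome 8 from 97420569 to 97423808 with 4.64 and on chromosome 11 from 100138621 to 100140379 with 4.62. The strongest peaks of these last 3 regions were narrow, at 510, 552 and 236 bp. In all, 11 of the 396 regions held a peak whose −log10 q reached 5, and such peaks were 1.98% of the 655, against the 1.55% of all autosomal marrow peaks. Of the 5 regions with the highest fold enrichment, 4 lay within 10 kb of a fetal liver peak, against 34.8% of all 396. Strong peaks of the chromosome 3 group lay at least 412.4 kb from any.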

How the data were processed

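H3K27me3 was profiled in NOTCH1ΔE-transduced, GFP-sorted cells that came from lineage-negative marrow and fetal liver progenitors. The submitters' processing notes name the aligner BWA 0.5.7, the peak caller MACS2 2.1.0, Picard and the build mm9. The sources used give neither settings nor depth. By the peak names, each list compares merged libraries with an input. The deposited fold enrichment is the authors' ratio over input, averaged over a peak; the deposited significance columns are −log10 p and −log10 q. The deposited score is derived from −log10 q and was not used. Fold and significance describe peaks within the marrow list. The inputs were not analysed here.

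Peaks were joined at gaps of up to 3 kb in Python 3.11.15 (pandas 2.3.3, numpy 2.4.6), with all 22283 regions identical to those of bedtools 2.31.1 and all 1900 regions recovered in simulated data. Gaps run from edge to edge, and coordinates count from 1. Wilson intervals came from scipy 1.17.1 and figures from matplotlib 3.10.9. A fetal-liver-free stretch runs from the last fetal liver peak before a region to the first after it.

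The regions, comparisons and alternatives were chosen with earlier results of these data known. Named regions were the 10 widest, the 5 of highest fold enrichment, the 5 farthest from and the 5 closest to a fetal liver peak, the 3 largest groups (ties by shortest span) and the 3 on either side of the width limit. Other named regions (the neighbours of the widest region and of the chromosome 3 group) were added after their values were seen. The gene and promoter tables at hand are on GRCm38, another build than mm9, so no gene or sequence was placed on the regions.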

Additional observations from a re-analysis of the deposited data

How the results depend on the processing

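No paired analysis was possible because each cell type has 1 list. Of 60 alternative values, 37 stayed within 1.5 times the reported value or, for the share with another region within 100 kb, within its interval. The 37 include every value of the median fill, which is capped at 100% and so could not exceed 1.5 times the reported 71.2%. It was 100% with touching peaks only, joining within 1 kb, a minimum width of 1 kb and the shortened fetal liver list. The same held for both −log10 q settings and for a fill of at least 50%. Joining within 10 kb gave 61.8% and a minimum width of 3 kb 54.3%. Joining only touching peaks gave median gaps of 4.97 kb to fetal liver peaks and 651.1 kb to wide shared regions and a share of 28.7%; joining within 1 kb gave 8.90 kb, 488.0 kb and 28.4%, and within 10 kb 35.0 kb, 116.8 kb and 8.48%, since the joining sets the floor of the gaps and the width of shared regions. A minimum width of 1 kb gave 665 regions and a share of 23.0%, and one of 3 kb 164 regions. Keeping only as many fetal liver peaks as there are marrow peaks, by −log10 p, gave 1634 regions and 36.6%. Marrow peaks of −log10 q of at least 2 alone gave 91 regions and 433.2 kb to wide shared regions. The same limit on both lists gave 1576 regions, 108.5 kb, 3850.4 kb and 47.5%. Requiring no fetal liver peak within 10 kb left 258 regions, 33.1 kb and 11.6%. Of the 396 regions, 227 were found with touching peaks only, 239 with joining within 10 kb and 87 with −log10 q of at least 2 in both lists. Leaving out the chromosome 3 group, chosen after seeing the data, gave a share of 16.7%. The unknown read depth limits every statement that fetal liver lacks the mark.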

Other observations

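The X chromosome, outside the rule, held 30 marrow-only regions of at least 1.5 kb, or 21.0% of its 143 regions of that width with a marrow peak, against 4.56% on the autosomes. There were 13 fetal-liver-only regions of that width on X, so the order of the classes was the opposite of that on each autosome. The marrow-only regions of X were loosely built, with a median fill of 54.4% and a median of 2 peaks. Their strongest peak had a median fold enrichment of 2.10, against 2.24 for the autosomal regions. Another lay within 100 kb of 13 of the 30 (43.3%, 95% Wilson interval 27.4 to 60.8%). The widest, from 133395689 to 133403175, measured 7.49 kb, with 3 peaks that filled 31.5% of it and its nearest fetal liver peak was 123.9 kb away. No label gives the animals' sex, and its part in these values was not tested.

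The longest fetal-liver-free stretches around a marrow-only region, picked after their values were seen, were 7087.1 kb around a peak on chromosome 8 from 58772552 to 58774080 and 6435.1 kb around one on chromosome 4 from 32023424 to 32025160. In both the region lay near one end of the stretch, with a fetal liver peak 316.2 kb and 137.0 kb away. The stretch on chromosome 8 held 5 marrow peaks in 5 regions, and that on chromosome 4 held the 1 peak alone.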
